A study of Mus musculus with 36 samples.

Results

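The genes described here are 10 transcripts of intestinal goblet cells: Muc2, Tff3, Fcgbp, Clca1, Agr2, Spdef, Atoh1, Zg16, Spink4 and Retnlb. They were named by symbol, with no threshold on a measured value, and are 10 of the 52636 genes listed in each library. Their levels were measured by RNA sequencing in 30 whole intestines of C57BL/6N embryos taken at E18.5, late in embryonic development, and are described by genotype within 2 sets of embryos, 3 libraries per genotype. The study asked how caspase-8 and cFLIP control death and inflammation in the developing gut.

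The first set, called D387A here, concerned caspase-8 with a mutated autocleavage site (D387A, the 1xDA allele) and held 6 genotypes. These were Mlkl-/- controls, Casp8 1xDA/1xDA with no other deletion, a Casp8 1xDA/1xDA Cflar-/- Mlkl-/- group, the same with Casp1-/-, the same with Casp1-/- and Ifnar1-/-, and the same with Casp1-/- and Fadd-/-. The second set concerned catalytically inactive caspase-8 (C362A) and held 4 genotypes: Mlkl-/- controls of its own, a Casp8 C362A/C362A Mlkl-/- group, this genotype with Casp1-/- added, and this genotype with Cflar-/- added. Cflar encodes cFLIP, Mlkl the executioner of necroptosis, Casp1 the inflammasome protease, Fadd the adaptor that recruits caspase-8, and Ifnar1 a subunit of the type I interferon receptor. All groups but Casp8 1xDA/1xDA lacked Mlkl, the controls included, so no group was wild-type and the Casp8 1xDA/1xDA embryos differed from their controls at both Casp8 and Mlkl. The Mlkl and Cflar deletions of the D387A mice came from a single CRISPR founder, and the deletions were constitutive, in every cell of the embryo.

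Goblet cells secrete the gel that covers the intestinal epithelium. They arise from secretory progenitors in which the transcription factor ATOH1 is active and Notch signaling is low, and the ETS factor SPDEF drives their maturation. MUC2 is the gel-forming mucin, a large glycoprotein that is folded in the endoplasmic reticulum with help of AGR2, covered with O-linked glycans in the Golgi and released together with FCGBP, CLCA1 and ZG16. TFF3 is a trefoil peptide of the same granules and SPINK4 a small secreted peptide related to serine protease inhibitors. RETNLB, the resistin-like molecule beta, is a goblet cell protein known for its induction by gut microbes and by the type 2 cytokines IL-4 and IL-13.

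The members lie on 7 chromosomes of GRCm38, and the files count reads over the whole exonic length of each. Muc2 (ENSMUSG00000025515, chr7:141690340-141754693), Fcgbp (ENSMUSG00000047730, chr7:28071236-28120862), Agr2 (ENSMUSG00000020581, chr12:35992907-36004087), Atoh1 (ENSMUSG00000073043, chr6:64729125-64731245), Spink4 (ENSMUSG00000028415, chr4:40920052-40931395) and Retnlb (ENSMUSG00000022650, chr16:48816856-48818892) are on the plus strand. Tff3 (ENSMUSG00000024029, chr17:31125306-31129646), Clca1 (ENSMUSG00000028255, chr3:145003817-145032776), Spdef (ENSMUSG00000024215, chr17:27714352-27728955) and Zg16 (ENSMUSG00000049350, chr7:127050156-127087328) are on the minus strand. Introns of Zg16 hold the genes Gm44939 and Gm22747 on the opposite strand, and no other member overlaps an annotated gene. The exonic length behind the Muc2 values is 3142 bases, which is short for so large a mucin, so the Muc2 level per length cannot be set against those of other genes.

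Promoters of 5 members (250 bases before to 50 after the start site, from RefSeq on GRCm38.p6) were at hand: Muc2, Agr2, Spdef, Fcgbp and Atoh1. Those of the 3 that passed the test for a rise in Casp8 1xDA/1xDA Cflar-/- Mlkl-/- intestines over Mlkl-/- controls are shown. Each is read along the gene's own strand: Muc2 at chr7:141690090-141690389, Agr2 at chr12:35992675-35992974 and Spdef at chr17:27728902-27729201. Capitals mark a match to one of 6 short motifs: the E-boxes CAGCTG and CAGATG bound by basic helix-loop-helix factors such as ATOH1, the ETS site GGATGT, the forkhead site TGTTTAC, the CDX site TTTATGG and the TATA box TATAAA, each searched on both strands.
Muc2: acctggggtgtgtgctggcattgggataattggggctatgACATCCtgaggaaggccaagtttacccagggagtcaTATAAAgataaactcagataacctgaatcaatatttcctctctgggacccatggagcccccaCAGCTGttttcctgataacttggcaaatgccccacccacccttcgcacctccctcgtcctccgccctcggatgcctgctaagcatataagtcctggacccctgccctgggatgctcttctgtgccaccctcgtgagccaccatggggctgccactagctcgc
Agr2: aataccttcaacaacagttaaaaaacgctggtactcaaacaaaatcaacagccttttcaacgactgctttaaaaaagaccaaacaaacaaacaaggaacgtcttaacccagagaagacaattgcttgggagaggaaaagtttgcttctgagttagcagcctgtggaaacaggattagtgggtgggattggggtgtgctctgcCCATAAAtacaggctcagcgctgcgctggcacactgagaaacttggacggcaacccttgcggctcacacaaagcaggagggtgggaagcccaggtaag
Spdef: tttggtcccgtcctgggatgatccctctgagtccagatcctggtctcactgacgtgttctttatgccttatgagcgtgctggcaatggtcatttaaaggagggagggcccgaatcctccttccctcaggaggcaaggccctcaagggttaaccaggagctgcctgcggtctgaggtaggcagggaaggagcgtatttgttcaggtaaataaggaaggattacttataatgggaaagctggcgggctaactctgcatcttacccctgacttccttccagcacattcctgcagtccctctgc
The Muc2 promoter held the E-box CAGCTG beginning 112 bases before the start site, an ETS motif on the opposite strand (ACATCC) at 210 bases before it and TATAAA at 174 bases before it. The Agr2 promoter held the CDX motif on the opposite strand (CCATAAA) at 48 bases before the start, and the Fcgbp promoter the same E-box at 208 bases before it. No motif of the 6 was found in the Spdef and Atoh1 windows. Of 32851 promoters of this length, 16.3% held CAGCTG, 17.15% CAGATG, 11.12% GGATGT, 3.65% TGTTTAC, 2.75% TTTATGG and 13.62% TATAAA.

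Libraries held 17943524 to 27721024 reads on genes in the D387A set (median 21411894) and 21757868 to 31052238 in the C362A set (median 26901266). Casp1 was at most 0.142 RPKM (reads scaled for exon length and library size) in the Casp1-/- groups and at least 28.4 elsewhere, Fadd at most 0.259 in the Fadd-/- group and at least 6.53 elsewhere, and Ifnar1 8.50 to 9.70 in the Ifnar1-/- group and at least 19.5 elsewhere; total Cflar and Mlkl reads did not separate the labelled genotypes. The 9 pan-epithelial markers, such as Epcam and Vil1, were present in every library, with a summed level of 4326 to 7769 CPM (counts scaled for library size). In 6 libraries, 1 each of 6 groups, a list of 11 stomach markers summed to more than 50 CPM, at most 290, with Atp4b at 0 everywhere. Some sample titles carry number prefixes that differ between genotypes and whose meaning is not given, while the titles of the C362A controls carry none. Any batch that the prefixes stand for and the genotype cannot be told apart.

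In the Mlkl-/- controls the goblet genes were already abundant at E18.5, with Tff3 at 865 ± 356 RPKM (SD, n = 3) in the D387A set and 1220 ± 314 in the C362A set. Agr2 followed at 275 ± 98.3 and 385 ± 50.0 RPKM, and Spink4 at 248 ± 105 and 351 ± 73.1 RPKM. The neighbours Agr2 and Spink4 did not differ beyond their spread in either set. Clca1, Fcgbp and Zg16 came next at 31.6 to 98.2 RPKM, the transcription factors Spdef (10.3 ± 3.22 and 14.7 ± 0.263) and Atoh1 (3.78 ± 0.917 and 5.47 ± 0.796) were low, and Retnlb was almost silent at 0.217 ± 0.191 and 0.214 ± 0.201 RPKM, with 9 and 11 reads over 3 libraries. The third Mlkl-/- library of the D387A set stood above the other two for all 10 members; its summed level over the members was 2422 CPM, against 1108 and 1255, and it was also the library with 290 CPM of stomach markers. Calls that changed without it, and called values that moved by over 1.5-fold, are given beside the result.

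**Figure D1:**
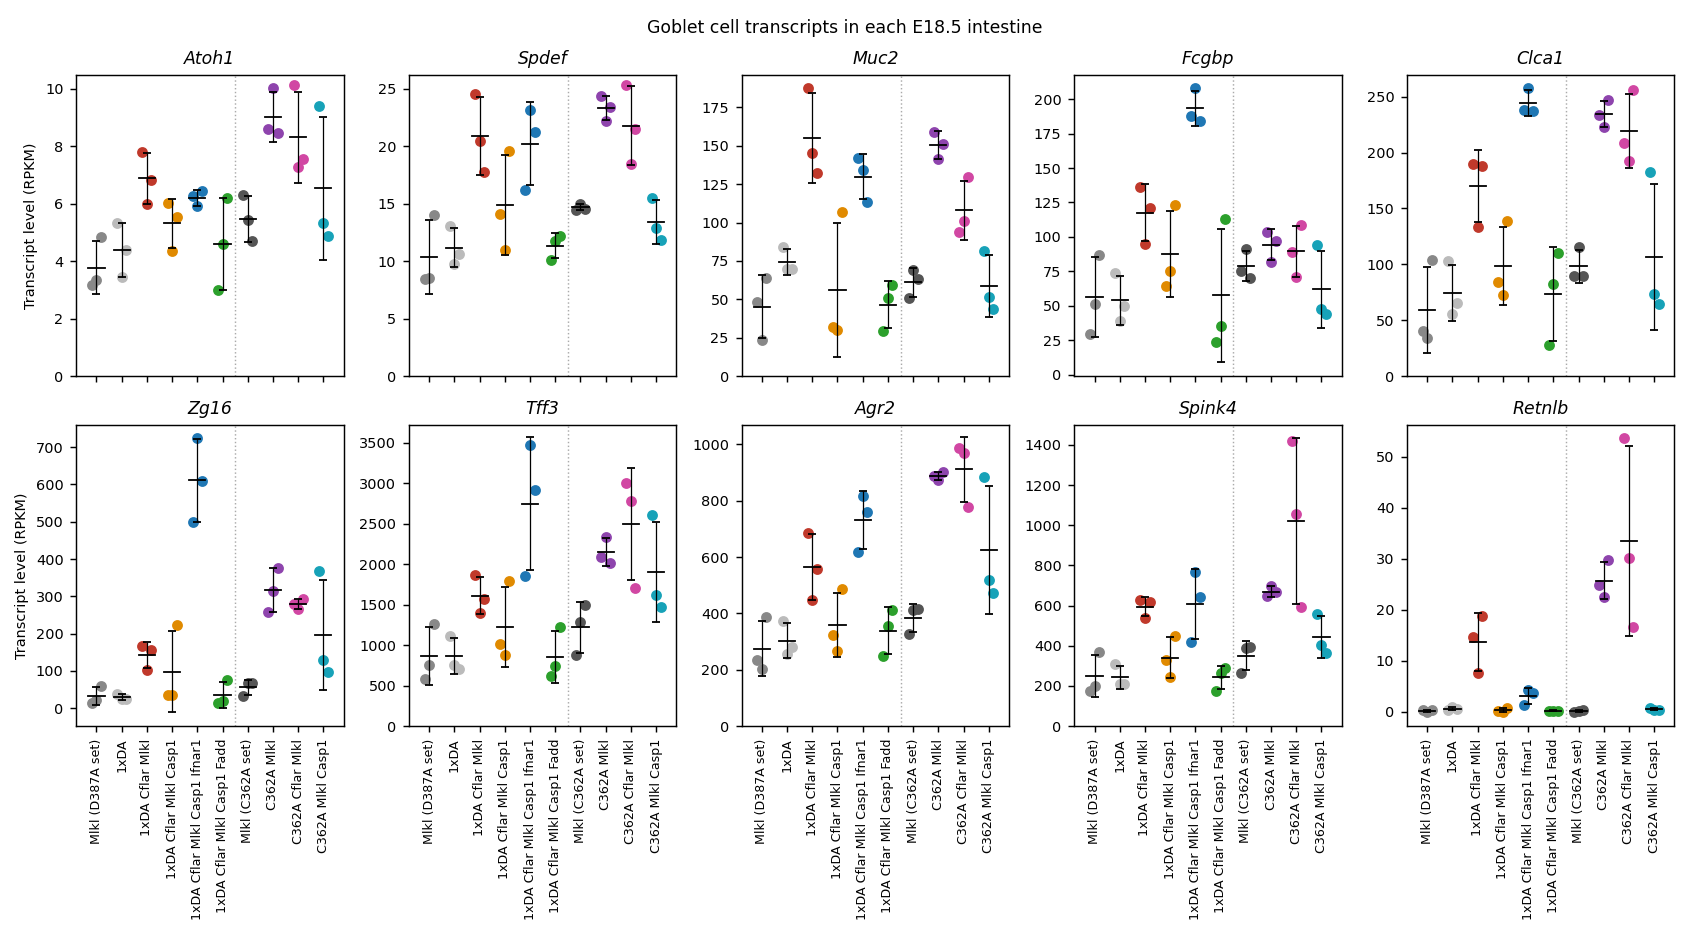
Levels of the 10 goblet cell genes in RPKM (vertical axes, 1 panel per gene) in each of the 30 intestines, by genotype along the horizontal axis, with points for libraries and bars for the mean ± SD of 3. Retnlb lay at 7.65 to 53.7 RPKM in 3 mutant groups, at 1.34 to 4.26 in the Ifnar1-/- group and at most 0.901 in all other libraries.

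Intestines of Casp8 1xDA/1xDA embryos, in which cFLIP and MLKL were intact, were compared with Mlkl-/- controls, so that Casp8 and Mlkl differed together. No member was called, where a call needs a log2 fold change above 1 or below -1 and an adjusted p under 0.05 from edgeR's quasi-likelihood test over all genes. By edgeR 0 members had an unadjusted p under 0.05, against 921 of all 18360 genes tested, and limma-voom and DESeq2 also called 0 members. Of all genes, 0% were called higher and 0.00545% lower. Muc2 read 84.3, 69.5 and 69.6 RPKM against 48.3, 23.3 and 63.9 in the controls, and was the only member whose groups did not overlap (log2 difference 0.72 ± 0.41 SE, adjusted p = 0.966). Of all genes, 9.37% were higher without overlap here. The median log2 difference of the 10 members was 0.12, against 0.02 over all genes.

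The next comparison set embryos with the 1xDA allele that lacked both Cflar and Mlkl against Mlkl-/- embryos, so that caspase-8 and cFLIP differed together and necroptosis could not run in either. Of the 10 members, 7 rose in the Casp8 1xDA/1xDA Cflar-/- Mlkl-/- group against Mlkl-/- controls (Muc2, Clca1, Zg16, Agr2, Spink4, Spdef and Retnlb), none fell, and every member was higher in all 3 libraries than in any control. Over all genes 34.3% were higher without overlap, and 9.4% were called higher and 12.8% lower. The median log2 difference of the members was 1.16, against -0.01 over all genes tested. In a whole intestine, more cells of a type and more RNA per cell cannot be told apart.

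Of the transcription factors, Spdef read 24.5, 20.4 and 17.8 RPKM against 8.45, 8.52 and 14.1, a 2.02-fold rise (log2 1.01 ± 0.22 SE, adjusted p = 0.000611). Atoh1 read 7.80, 6.01 and 6.84 RPKM against 3.16, 3.34 and 4.83; its log2 difference of 0.86 ± 0.23 (adjusted p = 0.00325) stayed under the limit of 1. Both factors separated the genotypes without overlap, the third control coming closest to the mutants.

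Among the mucus proteins, Muc2 read 188, 145 and 132 RPKM against 48.3, 23.3 and 63.9, a 3.43-fold rise (log2 1.78 ± 0.41, adjusted p = 0.00132). Zg16, a lectin-like protein that binds bacteria in mucus, read 168, 103.5 and 156 RPKM against 13.8, 22.0 and 59.0 and rose 4.50-fold (log2 2.17 ± 0.71, adjusted p = 0.0136). The Zg16 controls spread over a wide range, and without the third control its log2 difference was 2.99. Clca1, a metalloprotease of the mucus gel, read 189, 133 and 188 RPKM against 40.6, 34.05 and 103 (log2 1.52 ± 0.44, adjusted p = 0.00624, and log2 2.18 without the third control). Fcgbp, which is found bound to MUC2 in mucus, read 136, 95.2 and 121 RPKM against 29.7, 51.4 and 87.1, and its log2 difference of 1.07 ± 0.46 missed the threshold by edgeR (adjusted p = 0.0536), while limma-voom called it (log2 1.19, adjusted p = 0.0325). Fcgbp was called in 7 of 18 alternatives in all.

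For the folding factor and the small secreted proteins, Agr2 read 684, 449 and 559 RPKM against 234, 204 and 386.9 (log2 1.04 ± 0.26, adjusted p = 0.00239). Spink4 read 628, 539 and 616 RPKM against 176, 200.5 and 369 (log2 1.26 ± 0.28, adjusted p = 0.00101). Tff3, the most abundant member, read 1860, 1402 and 1567 RPKM against 580, 751 and 1264, and its log2 difference of 0.90 ± 0.33 (adjusted p = 0.0259) stayed under 1. All 3 separated the genotypes without overlap.

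Retnlb had the largest ratio, with 237, 119 and 328 reads against 4, 0 and 5 in the controls, or 14.7, 7.65 and 18.9 RPKM against at most 0.360. Its fitted log2 difference was 5.92 ± 0.67 (adjusted p = 7.19e-07), and 5.32 with a prior count of 2 in place of edgeR's default, so the size of the ratio depends on how the few control reads are handled. With the third control left out, all 10 members were called. With the first or the second control left out, 4 were called (Muc2, Clca1, Spink4 and Retnlb), and without the first mutant library 5 were.

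**Figure D2:**
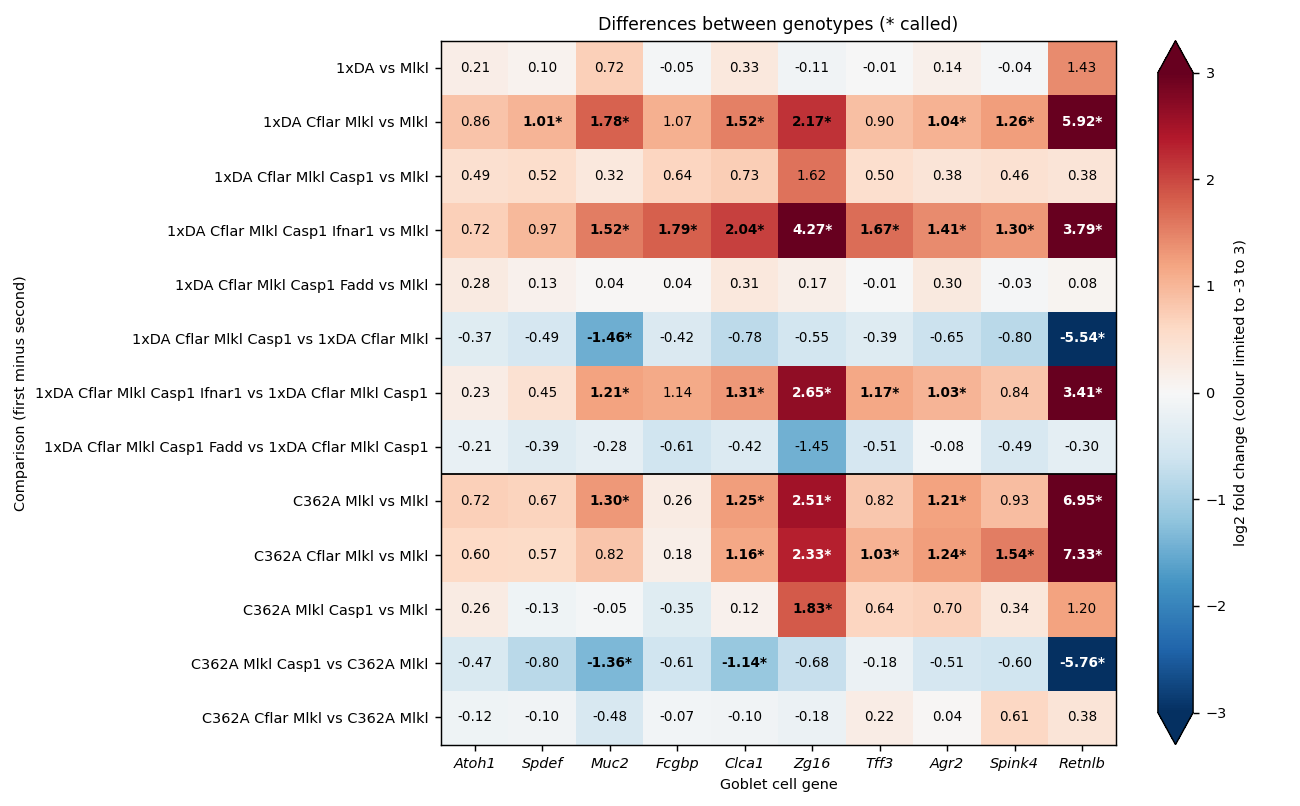
Log2 fold changes of the 10 goblet cell genes (horizontal axis) in each comparison of genotypes (vertical axis), coloured by sign and size, with an asterisk where the gene was called by edgeR's quasi-likelihood test. Against Mlkl-/- no call was negative, and Retnlb reached 7.33 in Casp8 C362A/C362A Cflar-/- Mlkl-/- intestines.

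Markers of other cells moved in the same intestines, and their part in the goblet gene values was not tested. Absorptive enterocyte markers (11 genes, among them Apoa4 and Fabp1) summed to 2557 to 4822 CPM in Casp8 1xDA/1xDA Cflar-/- Mlkl-/- libraries against 47019 to 54078 in the controls, and 10 of 11 were called lower. The goblet sum was 3086 to 4257 CPM against 1108 to 2422, while the pan-epithelial sum was 5719 to 6056 CPM against 4867 to 5430. Paneth cell markers summed to 241 to 259 CPM against 14.2 to 62.0, with 3 of 5 tested called higher and Defa30 at 0 in 1 control, and stem cell markers had 4 of 5 called higher. Neutrophil markers (S100a8, S100a9 and Ly6g) summed to 31.2 to 117 CPM against 2.07 to 13.9. Macrophage markers summed to 114 to 169 CPM against 297 to 314 (1 of 4 called higher and 1 lower), small intestine markers to 132 to 136 CPM against 212 to 227 (1 of 5 higher and 2 lower), colon markers to 21.1 to 56.8 CPM against 67.8 to 113, and smooth muscle markers to 5071 to 6267 CPM against 3775 to 4146. When libraries were scaled by the pan-epithelial genes instead of by all genes, 5 members remained called (Muc2, Clca1, Zg16, Spink4 and Retnlb) and the median log2 difference was 0.94.

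**Figure D3:**
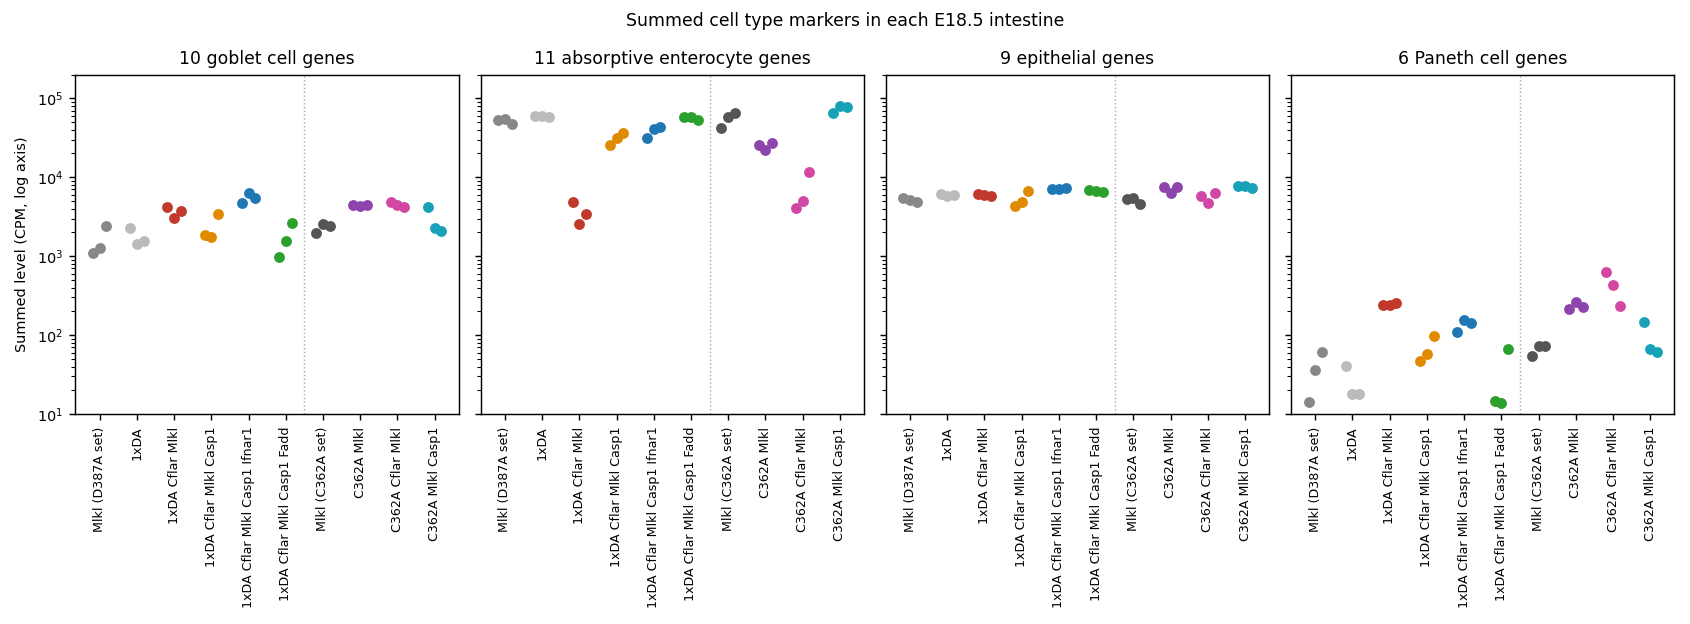
Summed CPM per library (vertical log axis) of the goblet cell members and of the enterocyte, pan-epithelial and Paneth cell marker lists, by genotype. In both Cflar-/- groups with intact Casp1 the enterocyte sum fell to between 2557 and 11708 CPM while the goblet sum was 3086 to 4881 CPM.

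Removing caspase-1 as well addressed which of the changes go with the Casp1 genotype, while pyroptosis and inflammasome activity were not measured here. Against Casp8 1xDA/1xDA Cflar-/- Mlkl-/-, 2 members fell when Casp1 was also deleted, Muc2 and Retnlb, and none rose; over all genes 8.88% were called higher and 4.51% lower. Retnlb was 2, 0 and 11 reads against 237, 119 and 328 (log2 -5.54 ± 0.63, adjusted p = 1.92e-06). Muc2 read 32.2, 30.1 and 107 RPKM against 188, 145 and 132 (log2 -1.46 ± 0.41, adjusted p = 0.00750). The other 8 members also had negative log2 differences, between -0.80 (Spink4, adjusted p = 0.0264) and -0.37 (Atoh1), with Agr2 at -0.65 (adjusted p = 0.0471). Spink4 was the only one of these 8 whose groups did not overlap, where 26.3% of all genes were lower without overlap. The median of the 10 members was log2 -0.60, against 0.03 over all genes. By edgeR 5 of the 10 had an unadjusted p under 0.05, as had 9863 of all 18360 genes. Zg16 read 35.2, 34.1 and 223 RPKM, so that a single library lay above the whole parent group.

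This library, the third of the Casp1-/- group, was the highest of its group for 9 of the 10 members, with a goblet sum of 3465 CPM against 1754 and 1866, and for other genes too: Mlkl read 23.0 RPKM in it and 3.13 and 3.72 in the other two. Without it 4 members fell, Zg16 (log2 -2.04) and Spink4 (-1.05) joining Muc2 (-2.31) and Retnlb (-7.56). Without the second Casp1-/- library, which had no Retnlb read, Retnlb differed by log2 -4.95. Against Mlkl-/- controls no member was called in the Casp1-/- group by edgeR, limma-voom or DESeq2, while 3 of 10 had an unadjusted p under 0.05, against 6216 of all 18360 genes. The median log2 difference was 0.50, and 2.16% of all genes were called higher and 2.18% lower. Leaving out the third control gave 2 calls, Clca1 and Zg16, and leaving out the second Casp1-/- library gave 1, Zg16. Against the parent group, enterocyte markers summed to 25738 to 36445 CPM in the Casp1-/- group against 2557 to 4822 (10 of 11 called higher), neutrophil markers to 5.36 to 13.6 CPM against 31.2 to 117 (3 of 3 lower), Paneth cell markers to 47.5 to 96.5 CPM against 241 to 259 (3 of 5 lower) and stem cell markers to 213 to 225 CPM against 352 to 486 (3 of 5 lower). The part of these markers in the fall of Muc2 and Retnlb was not tested.

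Further loss of the type I interferon receptor went with high goblet transcripts. The Casp1-/- Ifnar1-/- group had 8 of 10 members higher than Mlkl-/- controls, every member without overlap and a median log2 difference of 1.60; over all genes 28.4% were higher without overlap, 6.76% were called higher and 5.64% lower. Zg16 read 499, 724 and 611 RPKM against 13.8, 22.0 and 59.0, a 19.3-fold rise (log2 4.27 ± 0.76, adjusted p = 0.000209) and the highest mean Zg16 of any group; without the third control the log2 difference was 5.09. Tff3 reached 1855, 3475 and 2912 RPKM (log2 1.67 ± 0.33, adjusted p = 0.000594). Clca1 was tight at 238, 258 and 237 RPKM (log2 2.04 ± 0.44, adjusted p = 0.00115, and log2 2.71 without the third control), and so was Fcgbp at 188, 208 and 184 RPKM (log2 1.79 ± 0.47, adjusted p = 0.00453).

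Muc2 read 142, 134 and 114 RPKM there (log2 1.52 ± 0.41, adjusted p = 0.00581), Agr2 618, 818 and 761 RPKM (log2 1.41), and Spink4 420, 765 and 644 RPKM (log2 1.30). With libraries scaled by the pan-epithelial genes, Agr2 (log2 0.92) and Spink4 (log2 0.80) were no longer called. Retnlb was back at 22, 73 and 62 reads (log2 3.79 ± 0.74, adjusted p = 0.000483, and 3.23 with the larger prior count). The transcription factors stayed under the limit, Spdef at log2 0.97 ± 0.22 and Atoh1 at 0.72 ± 0.23. Spdef was called when the third control (log2 1.25) or the first Ifnar1-/- library (log2 1.10) was left out. Beside these values, Paneth cell markers summed to 111 to 154 CPM against 14.2 to 62.0 in the controls (3 of 5 tested called higher), neutrophil markers to 12.6 to 22.4 CPM against 2.07 to 13.9 (2 of 3 higher), macrophage markers to 354 to 407 CPM against 297 to 314 (2 of 4 higher) and enterocyte markers to 31355 to 43465 CPM against 47019 to 54078 (1 of 11 higher and 3 lower). The pan-epithelial sum was 7058 to 7360 CPM against 4867 to 5430 (1 of 9 higher), small intestine markers summed to 438 to 536 CPM against 212 to 227 (2 of 5 higher), stem cell markers to 230 to 289 CPM against 178 to 190 (2 of 5 higher) and pancreatic acinar markers to 48.0 to 112 CPM against 12.5 to 48.0 (2 of 5 higher). The part of these markers in the goblet gene values was not tested.

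Compared directly with the Casp1-/- parent, 6 members rose with Ifnar1 loss (Zg16, Retnlb, Clca1, Muc2, Tff3 and Agr2) and none fell, with 3.28% of all genes called higher and 2.03% lower. Zg16 differed by log2 2.65 ± 0.70 (adjusted p = 0.00944), Retnlb by 3.41 ± 0.69 (adjusted p = 0.00203) and Clca1 by 1.31 ± 0.43 (adjusted p = 0.0303). The 3 further calls were close to a limit: Muc2 at 1.21 (adjusted p = 0.0339), Tff3 at 1.17 (0.0141) and Agr2 at 1.03 (0.00764). With these 2 groups alone in the fit, 4 were called (Fcgbp, Clca1, Agr2 and Retnlb), and Zg16 (adjusted p = 0.0587), Muc2 (0.115) and Tff3 (0.0603) were not. Leaving out the first or the second Casp1-/- library, or the second Ifnar1-/- library, left 2 calls, Zg16 and Retnlb, and leaving out the third Ifnar1-/- library left 3. Without the third Casp1-/- library 8 were called, Fcgbp (log2 1.47) and Spink4 (log2 1.08) being added, with Zg16 at log2 4.14, Retnlb at 5.42 and Muc2 at 2.06. Without the second, Retnlb was at log2 2.82. Without the first Ifnar1-/- library Muc2 was not called (adjusted p = 0.0675) and Spink4 was (log2 1.05). With libraries scaled by the pan-epithelial genes, which summed to 7058 to 7360 CPM in the Ifnar1-/- group against 4326 to 6605 in its parent, 2 members were called. Small intestine markers summed to 438 to 536 CPM against 148 to 254 and pancreatic acinar markers to 48.0 to 112 CPM against 2.68 to 4.29; their part in the result was not tested.

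With Fadd also deleted on the Casp1-/- background, none of the 10 members was called. For this Casp1-/- Fadd-/- group edgeR, limma-voom and DESeq2 called 0 members against Mlkl-/-, and 0 had an unadjusted p under 0.05, against 5711 of all 18360 genes. At the full call, 2.81% of all genes were called higher and 0.975% lower. The log2 differences lay between -0.03 (Spink4) and 0.31 (Clca1). The third library stood above the rest: Zg16 read 13.2, 18.4 and 75.2 RPKM, Fcgbp 23.8, 35.3 and 113, and Clca1 27.9, 82.8 and 110. Retnlb was at 4, 3 and 4 reads. The enterocyte sum was 52796 to 58620 CPM against 47019 to 54078.

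Against the Casp1-/- parent the 10 members all had negative log2 differences (median -0.40), but none was called by edgeR, limma-voom or DESeq2, none had an unadjusted p under 0.05 (5796 of all 18360 genes did), and 2.56% of all genes were called higher and 0.877% lower. Zg16 had the largest difference, -1.45 ± 0.69 (adjusted p = 0.160). Without the third Fadd-/- library, Zg16 (log2 -2.62, adjusted p = 0.0278) and Fcgbp (-1.56, adjusted p = 0.0128) were called lower. The third libraries of the control, Casp1-/- and Fadd-/- groups were thus each the highest of their group in goblet sum, and 2 of these 3 held over 50 CPM of stomach markers.

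In the C362A set, the catalytically dead enzyme without MLKL gave higher goblet transcripts than its own Mlkl-/- controls. In Casp8 C362A/C362A Mlkl-/- intestines 5 members rose (Retnlb, Zg16, Muc2, Clca1 and Agr2), none fell, 9 of 10 did not overlap and the median log2 difference was 1.07; over all genes 28.4% were higher without overlap, 10.4% were called higher and 7.55% lower. Retnlb counted 479, 440 and 573 reads against 1, 3 and 7, or 24.9, 22.5 and 29.8 RPKM against at most 0.439 (log2 6.95 ± 0.54, adjusted p = 1.4e-07, and 6.38 with a prior count of 2); without the third control its log2 difference was 7.88. Zg16 read 259, 314 and 376 RPKM against 31.9, 68.2 and 66.3, a 5.70-fold rise (log2 2.51 ± 0.41, adjusted p = 0.000188). Every mutant library lay above every control for both genes.

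Muc2 read 159, 141 and 151 RPKM against 50.6, 69.0 and 63.4 (log2 1.30 ± 0.21, adjusted p = 0.000170). Agr2 read 888, 872 and 904 RPKM against 327, 410 and 417 (log2 1.21 ± 0.21, adjusted p = 0.000359), the mutants differing from each other by little. Clca1 read 233, 223 and 247 RPKM against 89.5, 116 and 89.7 (log2 1.25 ± 0.31, adjusted p = 0.00415). Under the limit of 1 lay Spink4 (0.93), Tff3 (0.82), Atoh1 (0.72) and Spdef (0.67), each with an adjusted p of at most 0.0223. Fcgbp was the exception at 104, 81.6 and 97.2 RPKM against 75.6, 90.9 and 70.3 (log2 0.26 ± 0.26, adjusted p = 0.454). Spink4 was called when the second (log2 1.00) or the third control (log2 1.02) was left out. Scaled by the pan-epithelial genes, which were themselves 6236 to 7499 CPM against 4557 to 5401, only Retnlb and Zg16 were called.

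Markers of other cells moved here as well, and their part in the goblet gene values was not tested. Enterocyte markers summed to 21946 to 27431 CPM in Casp8 C362A/C362A Mlkl-/- libraries against 42352 to 64618 in the controls, with 7 of 11 called lower and Treh at 0 in 2 of the 3 mutants. All 6 Paneth cell markers were called higher (212 to 259 CPM in sum against 53.7 to 72.1). The neutrophil sum was 271 to 337 CPM against 6.62 to 21.1, and at most 15.6 CPM when Casp1 was also deleted, where Paneth cell markers summed to 61.8 to 146 CPM. Small intestine markers had 2 of 5 called higher (204 to 260 CPM against 208 to 235).

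Caspase-1 loss in this set was again followed by lower Retnlb and Muc2. Compared with Casp8 C362A/C362A Mlkl-/- intestines, those also lacking Casp1 had 3 members lower (Retnlb, Muc2 and Clca1) and none higher, against 5.6% of all genes called higher and 5.72% lower. Retnlb was 12, 7 and 5 reads against 479, 440 and 573 (log2 -5.76 ± 0.48, adjusted p = 1.13e-06). Muc2 read 81.4, 51.5 and 43.4 RPKM against 159, 141 and 151 (log2 -1.36 ± 0.21, adjusted p = 0.000244), and Clca1 182, 73.3 and 64.3 against 233, 223 and 247 (log2 -1.14 ± 0.31, adjusted p = 0.0109). Spdef read 15.5, 12.9 and 11.8 RPKM against 24.3, 22.2 and 23.4, with no overlap but a log2 difference of -0.80 ± 0.13 (adjusted p = 0.000292). In all, 5 of 10 members and 25.7% of all genes were lower without overlap. The 10 log2 differences were all negative, with a median of -0.64 against -0.02 over all genes. By edgeR 7 of the 10 had an unadjusted p under 0.05, as had 8440 of all 19408 genes.

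The first of these Casp1-/- libraries had the highest level of all 10 members in its group, with a goblet sum of 4171 CPM against 2063 and 2297, and its Zg16 was 367 RPKM against 128 and 97.1. Without it 5 members fell, Zg16 (log2 -1.50) and Fcgbp (-1.05) being added and Clca1 at -1.77; without the second or the third, Clca1 was no longer called and 2 fell. Against Mlkl-/- controls this group kept 1 called member, Zg16 (log2 1.83 ± 0.40, adjusted p = 0.00308), with 6.79% of all genes called higher and 3.73% lower, and that call was lost without the same library (log2 1.00, adjusted p = 0.0144, just under the limit). Retnlb, at 12, 7 and 5 reads against 1, 3 and 7, had a log2 difference of 1.20 ± 0.82 (adjusted p = 0.270). Enterocyte markers summed to 64866 to 80571 CPM, against 21946 to 27431 with caspase-1 intact, and their part was not tested.

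With cFLIP deleted as well, Casp8 C362A/C362A Cflar-/- Mlkl-/- intestines had 6 members higher than Mlkl-/- (Retnlb, Zg16, Spink4, Agr2, Clca1 and Tff3) and none lower, with 13.4% of all genes called higher and 11.2% lower. Retnlb reached 923, 569 and 317 reads, or 53.7, 30.3 and 16.7 RPKM (log2 7.33 ± 0.54, adjusted p = 7.12e-08, and log2 8.29 without the third control). Spink4 read 1419, 1057 and 594 RPKM against 267, 390.2 and 396 (log2 1.54 ± 0.26, adjusted p = 0.000188), the highest mean Spink4 of any group. Muc2 read 93.7, 101 and 130 RPKM and its log2 difference of 0.82 ± 0.21 (adjusted p = 0.00411) stayed under 1. Tff3, at 3002, 2777 and 1711 RPKM, passed by little (log2 1.03, adjusted p = 0.00457) and lost the call when the first control or the first or second mutant library was left out. Scaling by the pan-epithelial genes also lost the Tff3 call (log2 0.91).

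Among the cell markers that differed between the C362A Cflar-/- group and its Mlkl-/- controls were enterocyte genes (9 of 11 called lower, 4033 to 11708 CPM in sum against 42352 to 64618), Paneth cell genes (6 of 6 higher, 237 to 624 CPM against 53.7 to 72.1), neutrophil genes (3 of 3 higher, 138 to 236 CPM against 6.62 to 21.1) and pancreatic acinar genes (5 of 5 tested higher, 13.9 to 167 CPM against 6.81 to 20.8). Smooth muscle markers summed to 4370 to 5242 CPM against 1963 to 3094 (2 of 5 higher), stem cell markers to 244 to 645 CPM against 146 to 189 (2 of 5 higher), small intestine markers to 136 to 176 CPM against 208 to 235 (1 of 5 higher and 2 lower) and macrophage markers to 118 to 183 CPM against 286 to 334 (1 of 4 higher and 1 lower). Their part in the goblet gene values was not tested.

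Between the C362A groups with and without Cflar, edgeR, limma-voom and DESeq2 called 0 members. An unadjusted p under 0.05 was reached by 2 of 10 members and by 6283 of all 19408 genes, and 1.45% of all genes were called higher and 4.62% lower. The log2 differences ran from -0.48 (Muc2, 93.7 to 130 RPKM against 141 to 159, without overlap as were 19.3% of all genes, adjusted p = 0.126) to 0.61 (Spink4, adjusted p = 0.115). These groups did differ in enterocyte markers, at 4033 to 11708 CPM against 21946 to 27431, with 9 of 11 called lower.

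The effects in the D387A and C362A sets were compared by testing the difference between them over all 30 libraries. For the Cflar-/- genotypes, each against its own Mlkl-/- group, no member differed by edgeR, limma-voom or DESeq2 (0.0102% of all genes called higher and 0.0662% lower in D387A), and none had an unadjusted p under 0.05, against 4043 of all 19643 genes. Muc2 had the lowest adjusted p, with an effect larger by log2 0.95 ± 0.50 in the D387A set (adjusted p = 0.281), and the effect on Retnlb was smaller there by 1.41 ± 1.30 (adjusted p = 0.561). For caspase-1 loss, no member was called by the 3 tools or had an unadjusted p under 0.05, against 6390 of all 19643 genes, and 4.9% of all genes were called higher and 0.825% lower. The differences for Muc2 (-0.09 ± 0.50) and Retnlb (0.23 ± 1.11) had wide errors, and the parents also differed in Cflar.

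Retnlb and Zg16 did not keep a fixed ratio. Retnlb per Zg16 in RPKM was 0.074 to 0.121 in Casp8 1xDA/1xDA Cflar-/- Mlkl-/-, 0.0719 to 0.0963 in Casp8 C362A/C362A Mlkl-/- and 0.0572 to 0.192 in Casp8 C362A/C362A Cflar-/- Mlkl-/- libraries. It was 0.0027 to 0.0062 in the Casp1-/- Ifnar1-/- group and 0.0019 to 0.0033 in the C362A Casp1-/- group, although Zg16 was high in the former. In the Mlkl-/- controls it was at most 0.021 (D387A set) and 0.0017 to 0.0066 (C362A set). It was 0.009 to 0.0356 in Casp8 1xDA/1xDA, at most 0.0037 in the D387A Casp1-/- group and 0.0034 to 0.0192 in the Fadd-/- group. Zg16 per Muc2 was 3.51 to 5.40 in the Casp1-/- Ifnar1-/- group. This was above the 1.09 to 2.09 of its Casp1-/- parent, the 0.712 to 1.18 of its Casp1-intact relative and the 0.286 to 0.945 of its Mlkl-/- controls. The range of the Ifnar1-/- group overlapped the 2.24 to 4.50 of the C362A Casp1-/- group, and the other C362A mutants lay at 1.63 to 2.49 and, with Cflar deleted, 2.25 to 2.98. The 3 groups with the high Retnlb to Zg16 ratio were those with mutant Casp8, deleted Mlkl and intact Casp1; these ratios are given as a description, with no test.

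**Figure D4:**
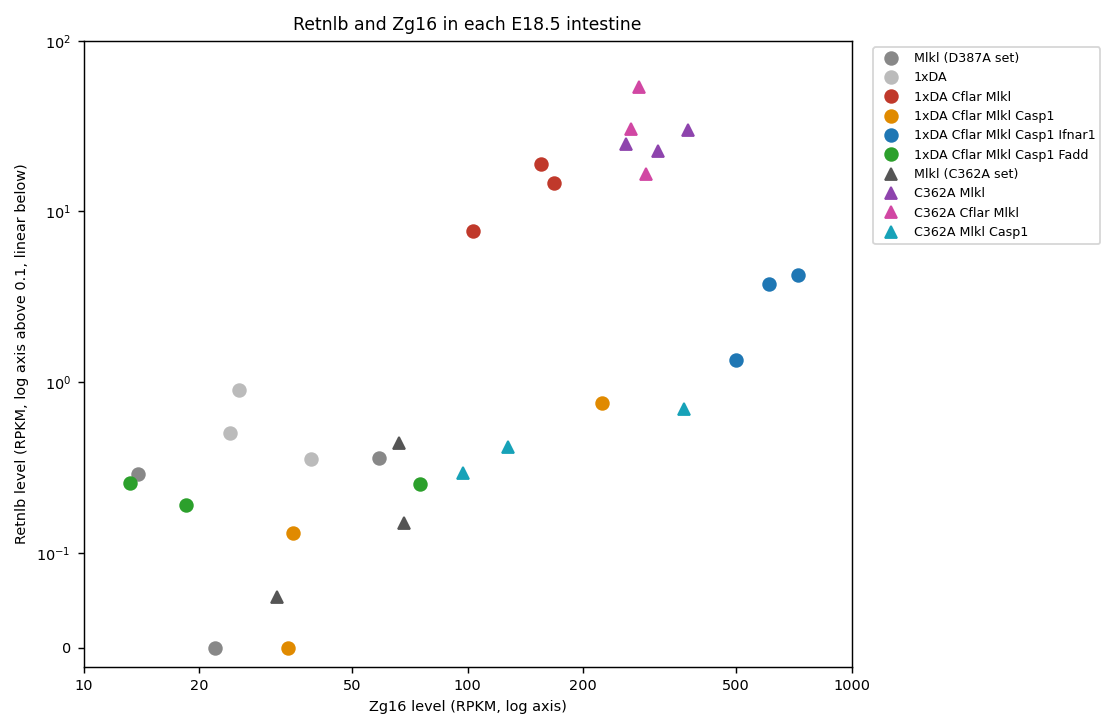
Retnlb against Zg16, both in RPKM on log axes (the Retnlb axis is linear below 0.1), 1 point per intestine, with circles for the D387A set and triangles for the C362A set. Points of the Casp1-/- Ifnar1-/- group lie at the highest Zg16 (499 to 724 RPKM) but at 1.34 to 4.26 RPKM of Retnlb, below the 7.65 to 53.7 RPKM of the 3 Casp1-intact mutant groups that lack Mlkl.

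Other goblet genes were followed in fixed lists. Of 8 further goblet cell transcription factors, 2 rose over Mlkl-/- levels in the Casp8 1xDA/1xDA Cflar-/- Mlkl-/- group and none fell: Foxa3 (6.78, 6.73 and 8.37 to 19.8, 23.8 and 20.5 RPKM, log2 1.55 ± 0.17, adjusted p = 4.73e-07) and Foxa1 (log2 1.15). Foxa3 fell again on caspase-1 loss (log2 -1.14 ± 0.16, adjusted p = 2.51e-05). Klf4, a factor of goblet cell differentiation that other epithelial and stromal cells also make, was called higher with Ifnar1 loss against Mlkl-/- (log2 1.47) and in Casp8 C362A/C362A Mlkl-/- (log2 1.57). The shares of all genes called higher were 9.4%, 6.76% and 10.4% in these 3 comparisons with Mlkl-/- controls. The list medians in the first and the last of these were log2 0.38 and 0.52, against -0.01 and 0.02 over all genes.

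Of 13 other secretory genes, 3 rose in Casp8 1xDA/1xDA Cflar-/- Mlkl-/- (Ang4, Fer1l6 and Qsox1) and none fell, with a list median of log2 0.33 and 9.4% of all genes called higher and 12.8% lower. The list summed to 638 to 757 CPM there and to 1088 to 1509 CPM in the Casp1-/- Ifnar1-/- group, against 458 to 526 in the controls. In the C362A set it summed to 951 to 1108.5 CPM in Casp8 C362A/C362A Mlkl-/- and 956 to 1337.5 with Casp1 also deleted, against 456 to 570. In the Fadd-/- group 1 gene of the list was higher than in Mlkl-/- controls, the transporter Slc12a8 (log2 1.21 ± 0.19). Of all genes, 2.81% were called higher and 0.975% lower in that comparison. Against the C362A controls 3 were higher and 1 lower both in Casp8 C362A/C362A Mlkl-/- (Ang4, Fer1l6 and Guca2a higher) and with Cflar also deleted (Ang4, Fer1l6 and Qsox1 higher), the lower gene being Best2, a goblet cell ion channel (log2 -1.34 and -1.56), whose groups overlapped in both and which was named after its values were seen. Over all genes, 10.4% were higher and 7.55% lower in the former group and 13.4% and 11.2% in the latter. Ang4, an antimicrobial ribonuclease made by Paneth and goblet cells, counted 12, 20 and 28 reads in the controls, 600, 427 and 1415 in the mutants, 30, 26 and 70 after caspase-1 loss and 202, 194 and 189 with Ifnar1 also lost. In the C362A set it counted 22, 45 and 36 reads in the controls, 1857, 2928 and 2618 in Casp8 C362A/C362A Mlkl-/-, 116, 47 and 32 after caspase-1 loss and 4405, 3165 and 2164 in the Cflar-/- group. Its log2 differences were 5.05 ± 0.46 and -4.12 ± 0.42 in the D387A set for the mutant and for caspase-1 loss, and 6.08 ± 0.44 and -5.06 ± 0.41 in the C362A set. Ang4 belongs to a family of near-identical ribonuclease genes, so reads may be shared among copies.

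Enzymes that add O-linked glycans to mucins had 6 of 13 tested genes higher and 1 lower in Casp8 1xDA/1xDA Cflar-/- Mlkl-/-, with a list median of log2 0.99, where 9.4% of all genes were higher and 12.8% lower. The largest rises were B3galt5 (log2 3.03 ± 0.59, adjusted p = 0.000258) and the branching enzymes Gcnt3 (1.51 ± 0.26) and Gcnt1 (1.50 ± 0.23). With caspase-1 loss 4 of the 13 fell, the same 3 and B3gnt3, against 4.51% of all genes. In Casp8 C362A/C362A Mlkl-/- 3 rose, against 10.4% of all genes, Gcnt1 (log2 2.41 ± 0.17), B3galt5 (1.76) and B3gnt3 (1.42). Among other mucins, the membrane mucins Muc3 (log2 3.58), Muc4 (1.78) and Muc20 (1.43) were called higher in the Casp8 1xDA/1xDA Cflar-/- Mlkl-/- group and none lower. The summed level of the list was 1286 to 1573 CPM there against 1614 to 1845, and Muc13, its most abundant member, read 842 to 1056 CPM against 1491 to 1755 (log2 -0.82 ± 0.10, named after its values were seen). Muc3 was called higher than in the Mlkl-/- controls in every mutant group but Casp8 1xDA/1xDA.

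Notch pathway genes were not called by edgeR in any comparison (12 or 13 tested of 13). DESeq2 called 1 lower in Casp8 C362A/C362A Mlkl-/- and limma-voom 0; the lowest value by edgeR there was that of Nrarp (log2 -0.98). Between the Casp8 1xDA/1xDA Cflar-/- Mlkl-/- group and the controls, 8 of 13 had an unadjusted p under 0.05, as had 11609 of all 18360 genes, and the list median was log2 -0.01. Members lay on both sides, and 4 of them are named here after their values were seen. The ligand Dll1 had a log2 difference of -0.73 ± 0.13 and the Notch target Nrarp of -0.63 ± 0.12, while that of the ligand Dll4 was 0.62 ± 0.09 and that of Adam10, a protease that cleaves Notch receptors, 0.73 ± 0.07. The summed level of the list was 608 to 619 CPM against 501 to 519.6 in the controls.

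Cytokines known to drive goblet cell genes, and their receptors, were the last list. Il13 counted 42, 20 and 29 reads in Casp8 C362A/C362A Mlkl-/- against 0, 2 and 0 in the controls, 0, 1 and 1 after caspase-1 loss and 5, 5 and 11 with Cflar also deleted; in Casp8 1xDA/1xDA Cflar-/- Mlkl-/- it counted 2, 3 and 11 against 0, 0 and 0 and was too low to test. Il13ra2, a decoy receptor induced by IL-13, counted 14, 10 and 25 reads in Casp8 1xDA/1xDA Cflar-/- Mlkl-/- and 12, 19 and 17 in Casp8 C362A/C362A Mlkl-/-, against 0 in all 6 controls. The alarmin Il33 read 15.2, 14.1 and 18.6 RPKM against 5.90, 5.89 and 6.51 (log2 1.39 ± 0.16, adjusted p = 7.41e-07), fell with caspase-1 loss (log2 -1.78 ± 0.16) and was called in the same directions in the C362A set (1.70 ± 0.21 and -1.68 ± 0.21). Of the genes tested, 2 of 6 were higher and 1 lower in the former mutant and 5 of 7 higher in the latter, beside 9.4%, 12.8% and 10.4% of all genes, and their part in the goblet gene values was not tested.

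Across libraries, the genes whose log2 CPM followed Muc2 most closely in both sets, among 15473 genes compared, were Chst4, Omp, Hgfac, Kcnk6 and Gpr55. Chst4, a sulfotransferase that acts on mucin-type glycans, had a Pearson r of 0.931 over 18 libraries and 0.935 over 12. The other 9 members had r of 0.718 to 0.847 with Muc2 in the D387A set and 0.589 (Tff3) to 0.950 (Clca1) in the C362A set. The points share genotype, library and tissue composition, so these values are a description.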

How the data were processed

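Whole, snap-frozen E18.5 intestines of single embryos gave 1 library each (30 libraries, 3 per genotype). The authors aligned reads with GSNAP to GRCm38 (mm10) and deposited counts of uniquely mapped reads per gene with RPKM values. The kit and instrument in the study's methods and in the sample labels differ, so whether strand was used in counting is not known. Genes were matched to the 10 symbols by Ensembl ID through GENCODE names. RPKM and CPM printed here were computed from the deposited counts and gene lengths on library sizes scaled by TMM (trimmed mean of M values).

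Groups came from the labelled genotypes, and for the Mlkl-/- controls from the sample titles. The control titles name neither set, so the assignment of controls to sets was inferred from them. Genotypes of a set were fitted together with edgeR 4.0.16 in R 4.3.3 (filterByExpr at a count of 10 and a total of 15, TMM, quasi-likelihood test, default prior count, Benjamini-Hochberg adjustment over all genes tested). Standard errors are log2 fold changes over the root of edgeR's F statistic, taken without sign. The scripts were tested on simulated data. Alternatives were limma 3.58.1 (voom), DESeq2 1.42.0, other scalings and filters, a replicate block and each library left out. Named were all members, up to 4 called genes without overlap per list and comparison, the targeted genes and the 5 genes most like Muc2, with exceptions said beside them. Members, lists and tests were chosen with earlier results of these data known.

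Same-numbered libraries carry no shared animal or batch in the labels. Deviations from the group means of same-numbered libraries correlated at -0.49 to 0.333 over the 13 comparisons within sets, and at 0.145 to 0.238 in Casp8 1xDA/1xDA against Mlkl-/-, the only comparison in which every pair exceeded 0.1, where the block called 0 members as the fit without it did. Depth limits Retnlb in the groups where it had under 20 reads a library. All 36 pairs of libraries within groups differed by more than sampling noise.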

Additional observations from a re-analysis of the deposited data

How the results depend on the processing

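No member changed sign when called, under any alternative. Of the 150 member values, 38 were called, and 619 of their 673 alternative values kept the call. The number of members called moved by over 1.5 times as follows. Leaving out each library gave 4 to 10 calls for Casp8 1xDA/1xDA Cflar-/- Mlkl-/- against Mlkl-/-, 0 to 2 for its Casp1-/- derivative against Mlkl-/-, 2 to 4 for that derivative against its parent, 2 to 8 for Ifnar1 loss and 0 to 2 for Fadd loss against the Casp1-/- group, and, for Casp8 C362A/C362A Mlkl-/- Casp1-/-, 0 to 1 against Mlkl-/- and 2 to 5 against its parent. Scaling by the pan-epithelial genes gave 2 calls for Ifnar1 loss, 1 for Fadd loss and 2 for Casp8 C362A/C362A Mlkl-/- against Mlkl-/-. Without a filter on low counts there was 1 call for the D387A Casp1-/- group against Mlkl-/- and 1 for Fadd loss. Leaving out the libraries with over 50 CPM of stomach markers, an alternative chosen after seeing the data, gave 3 and 2 calls for the same comparisons. The cause was not tested.

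The replicate block left counts of member calls within 1.5 times in every comparison: 8 in place of 7 for Casp8 1xDA/1xDA Cflar-/- Mlkl-/- against Mlkl-/- (Fcgbp added, log2 1.17), 7 in place of 6 for Ifnar1 loss (Fcgbp added, log2 1.24) and 5 in place of 6 for Casp8 C362A/C362A Cflar-/- Mlkl-/- against Mlkl-/- (Tff3 lost, log2 0.99). The other 12 comparisons kept their counts with the block.

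Raw library totals shifted the median log2 difference of all genes by up to 0.276, and scaling by the pan-epithelial genes by down to -0.588, so member values under them move with that shift. The share of all calls that were higher then went from 42.3% to 58.2% with raw totals and 29.2% with epithelial scaling for Casp8 1xDA/1xDA Cflar-/- Mlkl-/- against Mlkl-/-, from 61.8% to 50% and 12.4% for Ifnar1 loss, from 74.5% to 52.05% and 31.2% for Fadd loss, from 64.6% to 48.8% and 12.5% for the C362A Casp1-/- group against Mlkl-/-, from 49.5% to 25.8% and 38.9% against its parent, and from 23.9% to 40.8% and 67.8% between the C362A groups with and without Cflar. Raw totals moved it from 49.7% to 64.4% for the D387A Casp1-/- group against Mlkl-/- and from 54.5% to 71.5% for Casp8 C362A/C362A Cflar-/- Mlkl-/-. With epithelial scaling these 2 shares were 52.0% and 45.0%. Against Mlkl-/-, raw totals and epithelial scaling moved it from 54.5% to 57.1% and 18.1% for the Ifnar1-/- group. In the same order it went from 74.2% to 68.4% and 32.4% for the Fadd-/- group and from 58.0% to 67.6% and 26.0% for Casp8 C362A/C362A Mlkl-/-. For caspase-1 loss in the D387A set it went from 66.3% to 59.2% and 78.3%, and for the difference in caspase-1 loss between sets from 85.6% to 93.8% and 96.7%.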

Other observations

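The series also holds 6 libraries of mouse embryonic fibroblasts, which are no epithelium. Muc2 had 1 to 6 reads in each, 19 in all, Tff3 at most 2, Spdef and Zg16 at most 1, and Fcgbp, Clca1, Agr2, Atoh1, Spink4 and Retnlb had 0 reads in all 6.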
